A study of Mus musculus with 6 samples.

Results

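The fibroblast growth factor (FGF) system of cultured mouse pancreatic fibroblasts is described here through 10 genes, the ligand genes Fgf1, Fgf2, Fgf7, Fgf10 and Fgf18 and the receptor genes Fgfr1, Fgfr2, Fgfr3, Fgfr4 and Fgfrl1. They were picked by gene symbol, and 9 of the 10 matched a row of a raw count table that lists 14831 genes. Fgfr4 had no row in that table, so its expression was not analysed here. All 9 genes with a row passed the expression filter, which left 14289 genes for testing. RNA sequencing covered 6 libraries of immortalized fibroblasts of mixed strain, 3 with the label WT and 3 with the genotype Gli2-/-;Gli3-/- (KO), every one from a separate well grown to confluence in DMEM with calf serum. Lines of this kind were derived from adult mice with floxed Gli alleles and, after immortalization, infected with a GFP adenovirus together with a dsRed lentivirus (control) or a Cre adenovirus (KO), so that both groups carry a GFP virus and were sorted by flow cytometry. How many independently made lines the wells represent is not given in the sources used here, and p-values therefore measure the spread between wells.

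FGFs are secreted growth factors that bind receptor tyrosine kinases together with heparan sulfate chains at the cell surface. Receptor dimerization starts kinase signaling through docking proteins and the RAS-MAPK cascade, and alternative splicing of Fgfr1, Fgfr2 and Fgfr3 gives an epithelial IIIb and a mesenchymal IIIc form with different ligand preferences. In the developing pancreas, Fgf10 and Fgf7 from the mesenchyme act on the IIIb form of Fgfr2 in the epithelium and support the growth of epithelial progenitors. Fgf2 acts mainly on IIIc receptors, Fgf18 prefers the IIIc forms and Fgfr3, and Fgf1 can bind every FGF receptor kinase. Fgfrl1 binds FGFs but lacks the tyrosine kinase domain. The counts are sums over whole genes, so IIIb and IIIc forms cannot be told apart in them.

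Since GLI proteins are DNA-binding factors and the study compares lines by their Gli genotype, the start regions of 4 ligand genes are shown, 2 that were higher in the KO-labelled libraries by over 1.5-fold (Fgf18, Fgf2), 1 that was higher by less (Fgf10) and 1 that did not pass the test (Fgf7). Each sequence holds the 250 bases before the RefSeq transcription start on GRCm38.p6, written 5′ to 3′ on the gene's own strand, with every CpG dinucleotide in capitals. They lie at chr11:33147401-33147650 on the minus strand for Fgf18, at chr3:37348403-37348652 for Fgf2, at chr13:118714449-118714698 for Fgf10 and at chr2:126034408-126034657 for Fgf7, the last 3 on the plus strand.
Fgf18: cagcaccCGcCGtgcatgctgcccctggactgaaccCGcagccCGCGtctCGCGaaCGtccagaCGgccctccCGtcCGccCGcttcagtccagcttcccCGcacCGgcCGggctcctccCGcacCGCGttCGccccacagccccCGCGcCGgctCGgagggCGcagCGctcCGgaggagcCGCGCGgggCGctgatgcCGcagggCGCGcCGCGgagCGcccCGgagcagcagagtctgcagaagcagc
Fgf2: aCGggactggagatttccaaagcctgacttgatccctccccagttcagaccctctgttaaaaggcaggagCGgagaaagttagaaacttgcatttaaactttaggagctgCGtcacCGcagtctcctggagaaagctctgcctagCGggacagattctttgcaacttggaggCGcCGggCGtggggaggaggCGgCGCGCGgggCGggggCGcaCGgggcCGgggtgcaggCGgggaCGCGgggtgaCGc
Fgf10: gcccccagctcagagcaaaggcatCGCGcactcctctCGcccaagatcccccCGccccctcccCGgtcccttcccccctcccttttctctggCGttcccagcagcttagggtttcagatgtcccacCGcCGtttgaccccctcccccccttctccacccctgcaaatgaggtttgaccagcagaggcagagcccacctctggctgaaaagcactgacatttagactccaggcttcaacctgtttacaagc
Fgf7: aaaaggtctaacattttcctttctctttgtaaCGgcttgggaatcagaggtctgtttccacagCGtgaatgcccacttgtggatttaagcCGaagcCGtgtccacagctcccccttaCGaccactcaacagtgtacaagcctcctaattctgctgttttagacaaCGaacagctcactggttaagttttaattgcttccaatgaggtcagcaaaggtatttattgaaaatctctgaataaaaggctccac

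The Fgf18 window held 37 CpG dinucleotides and that of Fgf2 held 20, against 8 for Fgf10 and 6 for Fgf7. Over the 32851 RefSeq start windows of the same length, the median was 6 CpG, and 97.8% of windows held fewer than that of Fgf18 and 82.1% fewer than that of Fgf2. A CpG-rich start was not particular to the genes that were higher, since the window of Fgfrl1, which did not pass the test, held 30. The window of Fgfr2 held 2, and the 2 windows of Fgfr3 held 19 and 24. In the GENCODE M21 gene models, the windows of Fgf18 and Fgf7 lie directly before the gene. Those of Fgf2, Fgf10, Fgfr2 and Fgfrl1 lie inside the gene, so their CpG counts hold for the RefSeq start only. The consensus letters of a GLI site, GACCACCCA, were searched on both strands. They were in none of the 9 windows of 8 members that were searched, and in 0.225% of all windows. Member windows on chromosome 18, where Fgf1 lies, were left out of the search, and Fgfr1 had no window. The absence says only that these letters are not in the windows searched.

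The libraries were sequenced to similar depth, with 31728420 to 33905521 counts on genes in the WT-labelled ones and 32781730 to 41035931 in the KO-labelled ones. Levels are given as CPM, counts relative to library size, scaled by TMM, a normalization to the bulk of genes, and a floor of 3 counts corresponds to 0.0720 to 0.0957 CPM. Gli2 and Gli3, the targeted genes, went against the labels: Gli2 rose from 27.1 ± 1.19 to 56.2 ± 1.96 CPM (SD, n = 3 each) and Gli3 from 12.5 ± 0.0440 to 40.8 ± 1.64. Counts over a whole gene do not tell whether the floxed exons are present. Gli1, a direct target of Hedgehog signaling named here after its values were seen, was lower in the KO-labelled libraries, with 40, 50 and 37 counts in the WT-labelled ones and 4, 10 and 13 in the KO-labelled ones. The study's methods describe tests of its lines by qPCR of Gli genes and western blots of GLI2 and GLI3, which were not used here. Because the counts of Gli2 and Gli3 go against them, groups are named by label only, and each direction below rests on those labels. Of the fibroblast markers, Col1a1 was abundant in both groups, with 15982 ± 871 CPM in the WT-labelled libraries and 16113 ± 408 in the KO-labelled ones. It was the 1 marker tested that did not pass an adjusted p of 0.05. Of the 9 fibroblast markers tested, 7 passed as lower in the KO-labelled libraries and 1 as higher. Over these 9 the log2 fold change, labelled KO relative to labelled WT, ranged from -5.60 to 1.67, with a median of -0.66. Markers of mesothelium, the lining of the body cavity, differed: all 5 of the 6 listed markers with a row (Msln, Upk3b, Wt1, Lrrn4, Upk1b) were higher in the KO-labelled libraries, and their summed level was 22.6 to 25.6 CPM in the WT-labelled ones and 291 to 293 in the KO-labelled ones. None of these 5 was at 0 in either group. In bulk RNA, more cells of a type and more RNA per cell cannot be told apart, and the part of this difference in the FGF genes was not tested.

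Of the 9 members tested, 5 were called, which takes both an adjusted p under 0.05 and a 1.5-fold difference or more, and all 5 were higher in the KO-labelled libraries. By the same rule 17.7% of all genes tested were called, and 11.6% were called higher in the KO-labelled libraries. The members called were Fgf18, Fgf2 and Fgf1 among the ligands and Fgfr1 and Fgfr3 among the receptors. Fgfr3 passed the expression filter only through the KO-labelled libraries and so could be called in 1 direction only. With 10 counts required in every library it was not tested, and 4 members were called. By the adjusted p alone, Fgf10 joined them and 6 of the 9 passed, all higher, where 58.7% of all genes passed in either direction and 29.9% in this one. The median log2 fold change, labelled KO relative to labelled WT, was 0.69 over the 5 ligands, beside 0.00197 over all genes tested. Over the 4 receptors tested it was 0.55, but no receptor lay near that value. Fgfr2 (0.003) and Fgfrl1 (-0.009) were below it, and Fgfr1 (1.10) and Fgfr3 (2.08) above. Fgf7, Fgfr2 and Fgfrl1 did not pass. All adjusted p values are from an edgeR quasi-likelihood fit to the whole table.

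**Figure D1:**
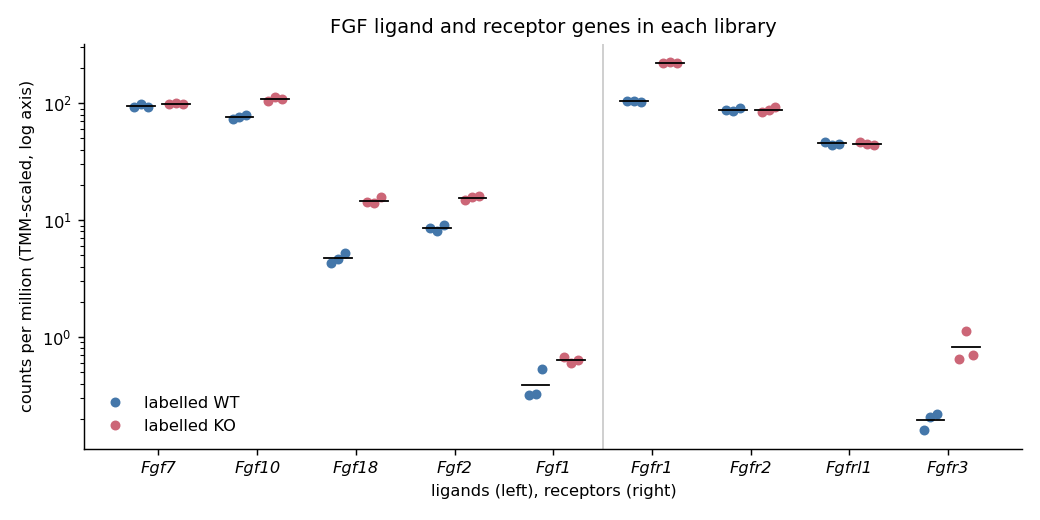
CPM (TMM-scaled, log axis) of the 9 FGF genes tested, with 1 point for each library, blue for labelled WT and red for labelled KO, and a bar at the mean of 3. The red points of Fgf10, Fgf18, Fgf2, Fgf1, Fgfr1 and Fgfr3 lie above all blue points of the same gene. Those of Fgf7, Fgfr2 and Fgfrl1 overlap with the blue points. The 6 genes without overlap are also those past the adjusted p, which 29.9% of all genes tested passed as higher. The share of all genes tested whose groups do not overlap is not given here.

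Fgf7, or keratinocyte growth factor, was the ligand with the highest level per length in both groups. It had 2928, 3306 and 2968 counts in the WT-labelled libraries and 3491, 4202 and 3235 in the KO-labelled libraries, or 93.4, 98.7 and 93.0 CPM against 98.6, 100.8 and 98.0. The 2 groups overlapped. Its log2 fold change was 0.06 (95% interval -0.01 to 0.13, adjusted p = 0.141). It passed the adjusted p alone, at 0.00970 with upper-quartile and at 0.0298 with total-count scaling, where the log2 fold change was 0.12 and 0.10. Fgf7 is at chr2:126034658-126091185 (GRCm38, with gene models of GENCODE M21, as for every position of a gene here).

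Fgf10, which shares its main receptor form with Fgf7, had 2294, 2536 and 2541 counts in the WT-labelled libraries and 3662, 4671 and 3564 in the KO-labelled libraries. In CPM these were 73.2, 75.7 and 79.6 against 103, 112 and 108, and every library labelled KO lay above every library labelled WT. Fgf10 (chr13:118669791-118792115) rose by 1.42-fold (log2 fold change 0.50, standard error 0.04, adjusted p = 3.48e-07), which is under the 1.5-fold limit. Within a library, there were 0.783, 0.767 and 0.856 Fgf10 counts per Fgf7 count in the WT-labelled ones and 1.05, 1.11 and 1.10 in the KO-labelled ones, so that the order of the raw counts of these genes turned. Of the Fgf10 exons, 2.67% of the bases overlap Gm16263 on the opposite strand, which had 2.18 ± 0.170 CPM in the WT-labelled libraries and 3.70 ± 0.495 in the KO-labelled ones, far fewer than Fgf10. Whether reads were counted by strand is not given in the sources used here.

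Fgf18, a regulator of bone, cartilage and lung growth, changed most among the ligands. The WT-labelled libraries had 135, 157 and 166 counts and the KO-labelled libraries 508, 580 and 523, or 4.31, 4.69 and 5.20 CPM against 14.3, 13.9 and 15.8. The lowest library labelled KO was thus well over the highest labelled WT. The log2 fold change of Fgf18 (chr11:33117430-33147400) was 1.63 (standard error 0.09, adjusted p = 6.77e-09), or 3.10-fold, and 95.9% of all genes tested had a lower log2 fold change.

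Fgf2, basic FGF, is a broad mitogen of fibroblasts and endothelial cells that leaves the cell without a classical signal peptide. It had 271, 273 and 290 counts in the WT-labelled libraries and 531, 662 and 526 in the KO-labelled libraries, or 8.65, 8.15 and 9.08 CPM against 15.0, 15.9 and 15.9, with no overlap. Fgf2 (chr3:37348346-37410108) rose by 1.81-fold (log2 fold change 0.86, standard error 0.07, adjusted p = 2.25e-07). Part of its exons, 9.44% of the bases, overlaps Nudt6 on the opposite strand. Nudt6 moved the same way by less, from 3.32 ± 0.309 to 4.44 ± 0.421 CPM (log2 fold change 0.42, adjusted p = 0.00812), and reads from the shared stretch cannot be assigned without strand.

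Fgf1, acidic FGF, also lacks a classical signal peptide and was close to the limit of what these libraries can show. It had 10, 11 and 17 counts in the WT-labelled libraries and 24, 25 and 21 in the KO-labelled libraries, or 0.319, 0.328 and 0.533 CPM against 0.678, 0.5999 and 0.636. The groups did not overlap, but 1 library labelled WT lay nearer to the KO-labelled ones than to its own group. The log2 fold change of Fgf1 (chr18:38838673-38929472) was 0.69 (95% interval 0.09 to 1.29, adjusted p = 0.0460). This call did not hold in 7 of 14 alternatives. The adjusted p was 0.184 with DESeq2 and 0.0522 without a count filter. Leaving out 1 library gave 0.139 without WT replicate 1, 0.154 without WT replicate 2, 0.115 without KO replicate 1, 0.0768 without KO replicate 2 and 0.0795 without KO replicate 3, and 0.0216 without WT replicate 3.

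Fgfr1, the main FGF receptor of mesenchymal cells, had the smallest spread between wells, relative to its level, of the genes called. It had 3263, 3503 and 3276 counts in the WT-labelled libraries and 7843, 9302 and 7298 in the KO-labelled libraries, or 104.1, 104.6 and 102.6 CPM against 221, 223 and 221. Both groups were tight and far apart. Fgfr1 (chr8:25513654-25575718) rose by 2.14-fold (log2 fold change 1.10, standard error 0.03, adjusted p = 7.73e-12). It kept its call in all 14 alternatives run, with a log2 fold change between 1.09 and 1.15. Of its exon bases, 1.66% overlap a gene model on the opposite strand that has no row.

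Fgfr2, the receptor that Fgf7 and Fgf10 bind, and Fgfrl1 did not pass the test, and their intervals were narrow. Fgfr2 (chr7:130162451-133123350) had 2725, 2896 and 2889 counts in the WT-labelled libraries and 2975, 3631 and 3083 in the KO-labelled libraries, or 87.0, 86.5 and 90.5 CPM against 84.0, 87.1 and 93.4. The groups overlapped, and the 95% interval of its log2 fold change was -0.09 to 0.09 (adjusted p = 0.959). Of its exon bases, 3.04% overlap Ctbp2 on the same strand, which fell by 0.13 on the log2 scale (adjusted p = 0.0251). Fgfrl1 (chr5:108692382-108706924) had 1465, 1480 and 1431 counts in the WT-labelled libraries and 1653, 1859 and 1440 in the KO-labelled libraries, or 46.7, 44.2 and 44.8 CPM against 46.7, 44.6 and 43.6. Its groups overlapped too, with an interval of -0.10 to 0.08 (adjusted p = 0.873). Changes as large as that of Fgfr1 or Fgf10 lie outside both intervals.

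Fgfr3, which restrains growth of cartilage, was at the bottom of the range. It had 5, 7 and 7 counts in the WT-labelled libraries and 23, 47 and 23 in the KO-labelled libraries, or 0.160, 0.209 and 0.219 CPM against 0.650, 1.13 and 0.697. No library labelled KO was as low as any labelled WT, and 1 of them, KO replicate 2, stood well above the other two. Fgfr3 (chr5:33721674-33737068) differed by 4.22-fold (log2 fold change 2.08, standard error 0.35, 95% interval 1.33 to 2.83, adjusted p = 2.06e-04), and its log2 fold change was 1.76 without KO replicate 2. Of its exon bases, 13.9% overlap a gene model on the opposite strand that has no row in the count table.

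**Figure D2:**
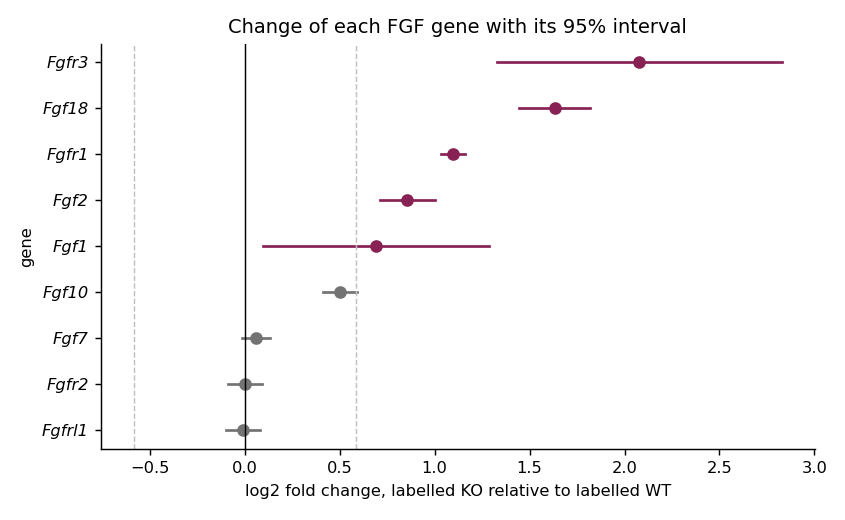
Log2 fold change of the 9 FGF genes, labelled KO relative to labelled WT, with its 95% interval from the edgeR fit. Genes called are purple, the others grey, and dashed lines mark 1.5-fold. The intervals of Fgf1 (0.09 to 1.29) and Fgfr3 (1.33 to 2.83) are the widest, and those of Fgf7, Fgfr2 and Fgfrl1 span 0.

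To compare genes with each other, CPM were divided by the joined length of all annotated exons in kilobases. On this scale the order in the WT-labelled libraries was Fgf7 (29.3 ± 0.981 CPM per kilobase), Fgf10 (16.6 ± 0.700), Fgfrl1 (16.3 ± 0.479), Fgfr1 (10.5 ± 0.104), Fgfr2 (8.52 ± 0.213), Fgf18 (3.99 ± 0.377), Fgf2 (1.27 ± 0.0689), Fgf1 (0.0720 ± 0.0221) and Fgfr3 (0.0274 ± 0.00446). Of these neighbours, only Fgf10 and Fgfrl1 overlapped between libraries. In the KO-labelled libraries, Fgf7 (30.5 ± 0.461) was still first, followed by Fgf10 (23.4 ± 0.942) and Fgfr1 (22.5 ± 0.115), which overlapped with each other. Fgfrl1 (16.2 ± 0.561), Fgf18 (12.4 ± 0.852) and Fgfr2 (8.54 ± 0.462) came next, and on this scale Fgf18 and Fgfr2 did not overlap. Fgf2 (2.30 ± 0.0779) came before Fgf1 (0.117 ± 0.00713) and Fgfr3 (0.115 ± 0.0368), which overlapped. The order between genes depends on the length used. For Fgfr1 the joined exons span 9875 bases and the longest transcript 5041. Per kilobase of longest transcript, Fgfr1 was in place 2 of the 9 genes in the WT-labelled libraries and in place 1 in the KO-labelled ones, instead of places 4 and 3. Fgf10 went from place 2 to place 5 in the WT-labelled libraries and to place 3 in the KO-labelled ones. Fgfr2 went from place 5 to place 3 in the WT-labelled libraries and from place 6 to place 4 in the KO-labelled ones, where it was then above Fgf18, with means of 19.9 and 13.5 CPM per kilobase. Each of the remaining genes except Fgf2 moved by 1 place in at least 1 group.

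**Figure D3:**
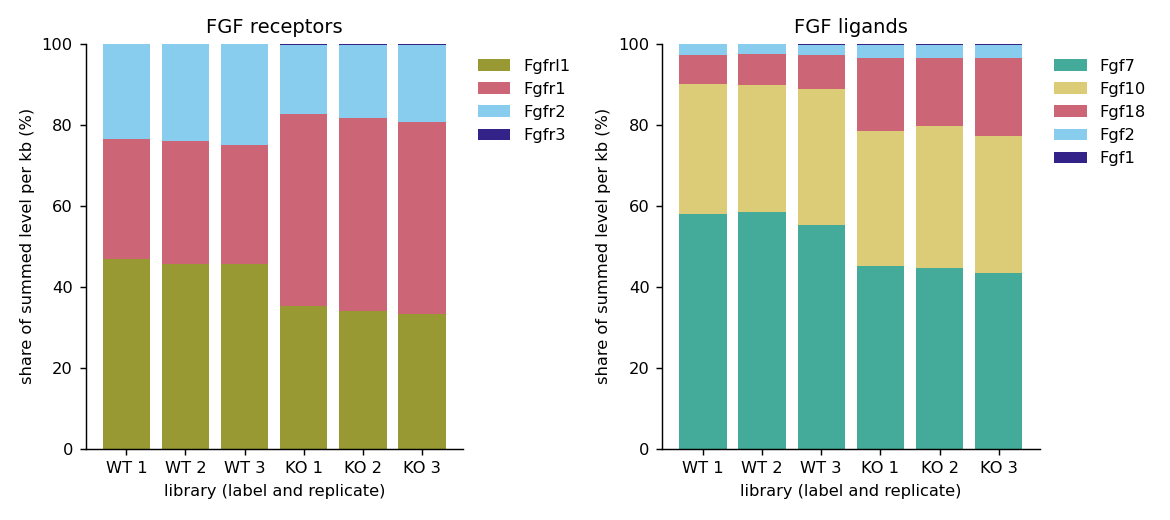
Share of each gene in the summed level per kilobase (percent) of the FGF receptors (left) and of the FGF ligands (right), 1 bar for each library. Fgfr1 grows from 29.4% to 30.4% of the receptor level in the WT-labelled libraries to 47.3% to 47.9% in the KO-labelled ones, and Fgf18 from 7.31% to 8.47% of the ligand level to 16.9% to 19.2%.

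The make-up of the receptor and ligand pools differed accordingly. With levels per kilobase of joined exons, Fgfr1 made up 29.5%, 30.4% and 29.4% of the summed level of the 4 receptors with a row in the WT-labelled libraries and 47.3%, 47.9% and 47.4% in the KO-labelled ones. Fgfrl1, the receptor without a kinase, was the largest part in the WT-labelled libraries with 46.0% ± 0.785 (SD, n = 3) and held 34.2% ± 1.10 in the KO-labelled ones, where Fgfr1 was the largest. Per kilobase of longest transcript this order did not hold in the WT-labelled libraries, where the mean level was 20.6 CPM per kilobase for Fgfr1, 19.9 for Fgfr2 and 19.4 for Fgfrl1, while in the KO-labelled ones Fgfr1 was again the largest with 44.03. Fgfr3 held at most 0.334% in any library. Without any length, there were 1.20, 1.21 and 1.13 Fgfr1 counts per Fgfr2 count in the WT-labelled libraries and 2.64, 2.56 and 2.37 in the KO-labelled ones, a ratio that library scaling cannot move. Among the ligands, Fgf7 and Fgf10 together were the bulk in both groups. Fgf7 held 57.2% ± 1.66 of the ligand level in the WT-labelled libraries and 44.4% ± 0.866 in the KO-labelled ones. The share of Fgf18 was 7.79% ± 0.604 and 18.01% ± 1.18, while that of Fgf10 was 32.4% ± 0.951 and 34.1% ± 0.832. These shares are descriptions of members picked with earlier results known, and no test was run on them.

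Most of the other FGF genes had no row in the count table, and their expression was not analysed here. Of 13 other secreted FGF genes, 1 had a row, Fgf17, with 31, 14 and 23 counts in the WT-labelled libraries and 22, 24 and 27 in the KO-labelled ones (log2 fold change -0.08, adjusted p = 0.832). Of the 4 FGF homologous factors, which act inside the cell and are not classical receptor ligands, 1 had a row, Fgf11, with 0.909 ± 0.110 and 0.796 ± 0.191 CPM (log2 fold change -0.20, adjusted p = 0.477). In both genes the groups overlapped, and neither was past an unadjusted p of 0.05 in edgeR or called by DESeq2 or limma.

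Of 16 genes of co-receptors and FGF binding proteins, 12 were tested and 3 were called, all higher in the KO-labelled libraries, where 11.6% of all genes were called in that direction. Flrt1 and Fgfbp1 passed the expression filter only through the KO-labelled libraries, so they could be called in 1 direction only, which leaves Gpc1 as the one called among genes that passed in both groups. Flrt1, a transmembrane protein that interacts with FGF receptors, had 0, 0 and 1 counts in the WT-labelled libraries and 78, 85 and 93 in the KO-labelled libraries, a level at least 24.6-fold higher when set against a floor of 3 counts per library (adjusted p = 3.79e-08). Fgfbp1, a carrier that releases FGFs from the matrix, had 4, 1 and 1 counts against 34, 26 and 28 (log2 fold change 3.62, standard error 0.45, adjusted p = 1.85e-05). Gpc1, a heparan sulfate proteoglycan anchored in the membrane, rose from 31.6 ± 2.46 to 58.7 ± 3.84 CPM (log2 fold change 0.90, adjusted p = 5.44e-08). By the adjusted p alone, 7 of the 12 were higher and 3 lower, where 58.7% of all genes passed in either direction and 29.9% as higher. The 7 include Flrt1 and Fgfbp1.

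Enzymes that build and edit heparan sulfate were called in both directions. Of 22 listed genes 13 were tested and 4 called, 1 higher and 3 lower in the KO-labelled libraries, where 17.7% of all genes were called, 11.6% higher and 6.1% lower. Sulf1, an extracellular sulfatase that removes 6-O-sulfate from heparan sulfate, fell from 137 ± 3.28 to 75.3 ± 2.69 CPM (log2 fold change -0.87, adjusted p = 5.53e-10). Ndst1, which starts sulfation of the chain, fell from 361 ± 8.90 to 207 ± 5.45 CPM (log2 fold change -0.81, adjusted p = 3.72e-10). Hs6st1, which adds the 6-O-sulfate, fell from 160 ± 2.68 to 99.5 ± 2.01 CPM (log2 fold change -0.69, adjusted p = 1.32e-09). Hs3st1, a 3-O-sulfotransferase with 1.29 ± 0.158 CPM in the WT-labelled libraries and 2.71 ± 0.111 in the KO-labelled ones, was the one called higher (log2 fold change 1.06, adjusted p = 3.93e-05). An enzyme that adds and one that removes the same sulfate group thus both fell. Other genes for this group went different ways without reaching 1.5-fold. Hs6st2, which also adds it, rose from 178 ± 0.677 to 212 ± 1.75 CPM (log2 fold change 0.25, adjusted p = 5.24e-06). Sulf2, which also removes it, fell from 309 ± 5.12 to 275 ± 7.77 CPM (log2 fold change -0.17, adjusted p = 4.49e-04). Over the 13 genes the median log2 fold change was -0.04.

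For the relay inside the cell, no gene was called. Of 23 genes of receptor adaptors and the RAS-MAPK cascade, all 23 were tested and 0 were called with the 1.5-fold limit by edgeR, DESeq2 or limma, where edgeR called 17.7% of all genes. In edgeR, 14 had an unadjusted p under 0.05, and 13 passed the adjusted p alone, 6 higher and 7 lower, where 58.7% of all genes passed. Log2 fold changes ranged from -0.42 to 0.42. The most abundant, the adaptor genes Shc1 and Crk, had log2 fold changes of -0.05 each (adjusted p = 0.198 and 0.245). Regulators of FGF receptor splicing had 10 of 11 listed genes tested and 0 called at 1.5-fold by edgeR, DESeq2 or limma, 7 under an unadjusted p of 0.05, 5 higher and 2 lower by the adjusted p, and a range of -0.19 to 0.29. The most abundant of them were Hnrnpa1 (log2 fold change -0.13, adjusted p = 0.0137) and Hnrnph1 (0.18, adjusted p = 1.24e-04).

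Genes that FGF signaling is known to induce, most of which restrain it in turn, were called in both directions. Of 18 listed genes, 17 were tested and 3 called, 1 higher and 2 lower in the KO-labelled libraries. Of all genes tested, 17.7% were called, 11.6% higher and 6.1% lower. By the adjusted p alone, 9 of the 17 passed, 6 higher and 3 lower, where 58.7% of all genes passed. Spry1, an inhibitor of the RAS-MAPK cascade, rose from 9.80 ± 0.898 to 18.6 ± 0.595 CPM (log2 fold change 0.92, adjusted p = 1.96e-07). Il17rd, also called Sef, an antagonist that acts at FGF receptors and on MAPK, fell from 93.0 ± 4.52 to 41.5 ± 1.99 CPM (log2 fold change -1.17, adjusted p = 3.63e-10). Etv1, an ETS transcription factor, fell from 21.1 ± 0.725 to 11.0 ± 0.407 CPM (log2 fold change -0.93, adjusted p = 2.63e-08). The median over the 17 genes was 0.04. Over all 7 lists outside the members, 10 of 77 genes tested were called, 5 higher and 5 lower, beside the 17.7% of all genes.

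**Figure D4:**
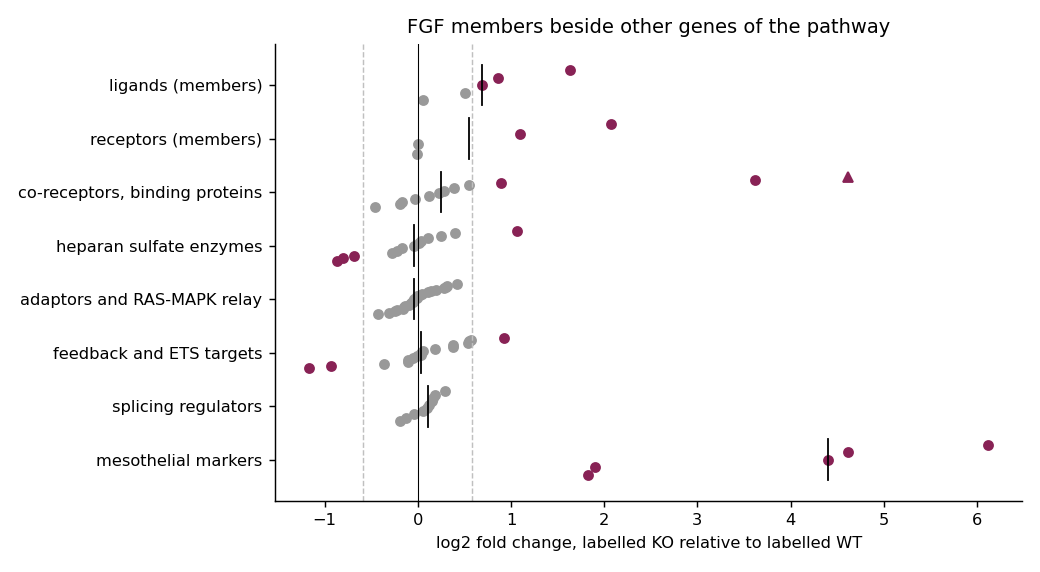
Log2 fold change, labelled KO relative to labelled WT, of the genes of each list that were tested, with genes called in purple, others in grey, a bar at the list's median and dashed lines at 1.5-fold. The triangle is Flrt1, drawn at its lower bound. The 5 members called lie to the right, the adaptors and relay genes stay between -0.42 and 0.42, and the 5 mesothelial markers lie between 1.83 and 6.12.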

How the data were processed

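RNA was sequenced from 6 wells of immortalized mouse pancreatic fibroblasts, and groups follow the genotype labels. The authors deposited unnormalized read counts per gene and, as a second table, voom log2 CPM. The submitters' processing notes name STAR 2.7.2b, featureCounts, limma and GRCm38.p6; annotation and strand setting are not given in the sources used here. Counts were tested with edgeR 4.0.16 (R 4.3.3), TMM, filterByExpr and the quasi-likelihood F test, with Benjamini-Hochberg adjustment over 14289 genes. Standard errors come from the fold change and its F statistic. A call needs an adjusted p under 0.05 and at least 1.5-fold. For a single gene, the smallest p of an exact permutation test with these group sizes is 0.1. No pair of wells in a group agreed within sampling noise (chi-square per degree of freedom 2.51 to 7.74), so none was treated as a repeat deposit of another; this says nothing of how many lines they come from. The pipelines were tested on simulated counts. Lengths and positions are from GENCODE M21, whose identifiers match 14822 of 14831 rows without version. Start windows are from the RefSeq promoter table.

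The members, lists, fold limit and tests were chosen with earlier results of these data known. Named genes are the members, the targeted genes and the overlapping genes. From each list, up to 4 called genes with the largest change are also named. Each of these has 10 counts or more in every library of its higher group. Where fewer than 2 were called, the 2 most abundant are named. Marker genes are given as a check, and Gli1, Col1a1, Hs6st2 and Sulf2 are named outside this rule. In the libraries labelled WT and KO, epithelial markers (5 of 10 with a row) summed to 14.5 to 15.5 and 31.9 to 33.7 CPM. Of the 4 epithelial markers tested, 3 passed the adjusted p as higher in the KO-labelled libraries and 1 as lower. In the same order, acinar markers summed to 7.36 to 8.84 and 13.6 to 15.4 CPM (1 of 8). Macrophage markers summed to 17.1 to 18.2 and 16.2 to 16.7 (3 of 8). Endothelial markers summed to 0.866 to 1.60 and 0.763 to 0.939 (1 of 8), and fibroblast to 44836 to 47249 and 36791 to 38541 (10 of 12). Alternatives were DESeq2 1.42.0, limma 3.58.1 with voom or applied to the deposited log2 table, scaling by RLE, upper quartile or total count, 2 other filters, a 2-fold limit, other gene lengths and fits without each library.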

Additional observations from a re-analysis of the deposited data

How the results depend on the processing

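Of the 9 members tested, no member past the test changed direction under an alternative. Fgf18, Fgf2 and Fgfr1 were called in all 14 alternatives run with the 1.5-fold limit. Fgfr3 was called in the 13 of these that tested it, but it passed the main filter only through the KO-labelled libraries. Where 10 counts were required in every library, Fgfr3 was not tested, so its calls do not compare with those of the other 3. With a 2-fold limit, 3 members were called (Fgf18, Fgfr1 and Fgfr3) and 4 genes of the other lists. The share of all genes called at that limit is not given here, so these counts cannot be set against it. The number of members called was 4 or 5 elsewhere, the difference being Fgf1 or Fgfr3, and that by adjusted p alone 5 to 7. Fgf7 had an adjusted p of 0.00970 with upper-quartile and 0.0298 with total-count scaling, at log2 fold changes of 0.12 and 0.10, where the median of all genes was 0.06 and 0.04. The log2 fold changes of Fgfr2 (-0.04 to 0.06) and Fgfrl1 (-0.04 to 0.05) changed sign without passing the test. Other list genes called numbered 8 to 15 besides the 2-fold limit, the highest without WT replicate 1. The share of Fgfr1 in the receptor level differed by 17.8 percentage points, by 18.4 with the longest transcript and by 18.6 without division by length. No paired analysis was possible because the labels carry no replicate numbers that tie wells of one group to those of the other. Depth limits Fgf1 and Fgfr3, which had at most 25 and 47 counts in a library.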
